A study of Mus musculus with 6 samples.

Results

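The genes described here build the calcium cycle of heart muscle, measured in whole mouse lung. They are phospholamban (Pln), the ryanodine receptor Ryr2, the calcium pump SERCA2 (Atp2a2), calsequestrin 2 (Casq2), sarcolipin (Sln), the histidine-rich calcium-binding protein (Hrc), triadin (Trdn), junctophilin 2 (Jph2) and the sodium-calcium exchanger NCX1 (Slc8a1). All probe sets whose single annotated gene symbol was 1 of these 9 names were taken, 27 of the 45037 probe sets in the deposited table, and each was followed apart from the others of its gene. Of the 27, 16 lay above the filter on dim probe sets and were tested, at least 1 for each of the 9 genes, and 11 were too dim. The study used inducible transgenic mice in which the promoter of SM22, a smooth muscle gene also called transgelin, directs a dominant-negative BMP type 2 receptor (dnBMPR2). The receptor is the one mutated in familial pulmonary arterial hypertension. There were 6 arrays, 1 from a female and 1 from a male pool in each of 3 groups, namely controls, mice with the transgene on for 1 week and mice with it on for 8 weeks. A pool joined the lungs of 3 mice, 18 mice in all, so single animals were not measured and no group held replicate pools of the same sex. The male control pool carried the SM22-rtTA transactivator without dnBMPR2. The female control was labelled only by its sex and the FVB/N strain, while the series description gives all controls as carrying the transactivator alone. The agent that switched the transgene on, the ages of the mice and the activation time of the controls were not in the labels. The series description gives a raised right ventricular pressure for the mice that carried dnBMPR2.

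Heart muscle contracts when calcium entering through surface channels opens Ryr2, which releases far more calcium from the sarcoplasmic reticulum, the internal store. Casq2 and Hrc bind calcium inside the store, Trdn anchors Casq2 to the release channel, and Jph2 holds the store membrane close to the surface membrane. Relaxation follows when Atp2a2 pumps calcium back into the store, restrained by the small membrane proteins Pln and Sln, and when Slc8a1 exports calcium in exchange for sodium. In the mouse, sleeves of heart muscle run along the pulmonary veins into the lung, and heart muscle makes Pln, Ryr2, Casq2 and Sln. Whether these came from heart muscle alone in these lungs was not tested. Atp2a2 and Slc8a1 are also used by cells outside muscle. In whole lung, fewer cells of a type and less RNA per cell cannot be told apart.

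Lung epithelium markers checked the labelled tissue: all 9 were above the filter, and their summed intensity lay between 98.9% and 104.4% of the mean of the control pools on every array. Much of this sum came from very bright probe sets, such as that of Sftpa1 (log2 12.70 to 13.02), where quantile normalization leaves little room to move. Its constancy was therefore partly set by the processing. Median deposited intensity was 57.1 to 63.41 in the control and 1 week pools and 50.49 and 52.92 in the female and male 8 week pools. Values below are log2 intensities after quantile normalization, with a floor at 3.95. A change is a difference of log2 intensities, so a change of −1 is a halving. Each change is the mean of the female and the male change with the standard error of a limma fit with group and sex as terms, and adjusted p-values are Benjamini-Hochberg values over all 27022 probe sets tested, called below 0.05. In this model the residual spread is how far the female and male changes differ, so it mixes the spread between pools with any difference between the sexes in those changes. The transgene cannot be told apart from any difference in age, inducer or the handling of tissue.

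After 8 weeks, 14 of the 16 tested probe sets were lower than control in both sexes, against 29.0% of all probe sets tested, and 0 were higher in both. At 1 probe set a gene, 0 of the 9 members were higher in both sexes, against 42.2% of all 13215 genes. Both 8 week pools lay below both control pools for 11 of the 16, against 18.8% of all probe sets, and above them for 0, against 23.0%. The mean change reached −1 or lower for 8 of the 16, against 4.39% of all, and 1 or higher for 0, against 1.63%. The median change of the 16 was −0.95, that of all probe sets 0.03, and the middle of the distribution, from the 5th to the 95th percentile, ran from −0.95 to 0.66. Of the 16, 1 was called lower, a probe set of Pln, against 0.389% of all, and 0 were called higher, against 0.207%. Another 9 had an unadjusted p below 0.05 without passing, which made 10 in all on the low side against a background of 11.2%, with 0 on the high side against 11.8%. Probe sets of the same gene share their transcript and are not independent.

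**Figure D1:**
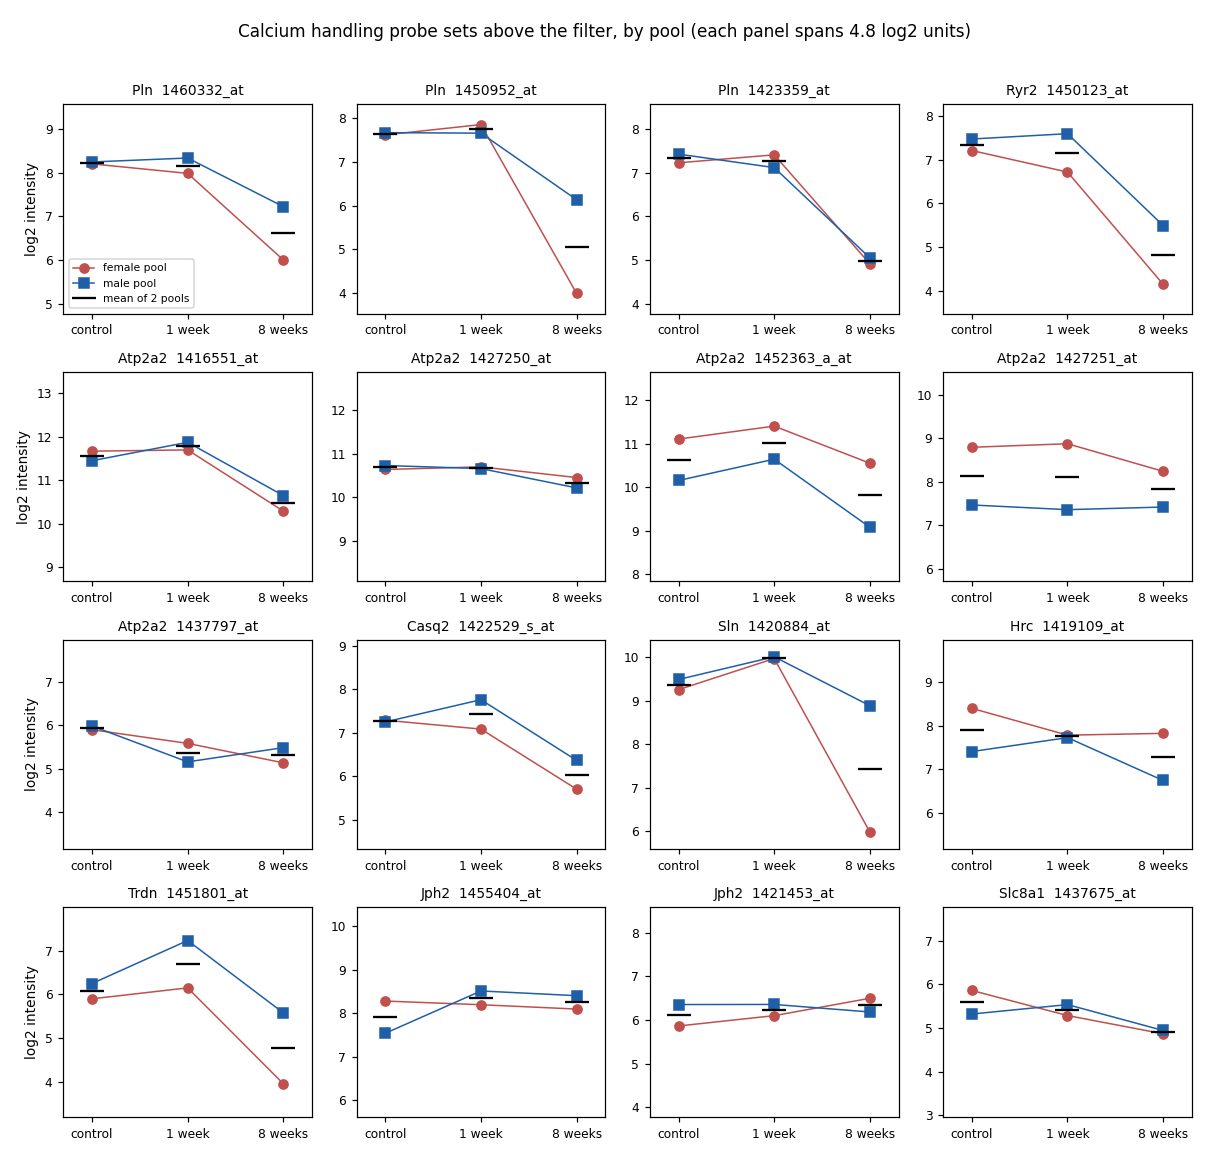
Log2 intensity of the 16 tested probe sets in each pool, with 1 panel a probe set; circles are female pools, squares male pools, black bars the mean of the 2 pools of a group, and every panel spans 4.8 log2 units. Pln, Ryr2, Casq2, Sln and Trdn are lowest at 8 weeks in both sexes, while both Jph2 probe sets stay within the range of the controls or above it, and 2 Atp2a2 probe sets keep the female pools above the male pools in every group.

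The promoters of the 3 genes with the clearest gap between 8 week and control pools are shown because their base composition differs widely although all 3 genes were lower in both 8 week pools. A window of 250 bases before the start of transcription was available from RefSeq (GRCm38.p6) for 6 of the 9 genes: Pln, Ryr2, Casq2, Hrc, Jph2 and Slc8a1. Those of Pln (chr10:53337436-53337685, plus strand), Ryr2 (chr13:12106946-12107195, minus strand) and Casq2 (chr3:102086165-102086414, plus strand) read, 5′ to 3′, as follows, with matches to the motifs named after them in capitals.
Pln: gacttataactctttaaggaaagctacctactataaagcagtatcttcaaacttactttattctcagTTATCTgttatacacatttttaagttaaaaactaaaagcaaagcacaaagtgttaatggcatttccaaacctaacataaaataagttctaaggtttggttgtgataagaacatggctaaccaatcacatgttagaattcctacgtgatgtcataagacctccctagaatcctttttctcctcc
Ryr2: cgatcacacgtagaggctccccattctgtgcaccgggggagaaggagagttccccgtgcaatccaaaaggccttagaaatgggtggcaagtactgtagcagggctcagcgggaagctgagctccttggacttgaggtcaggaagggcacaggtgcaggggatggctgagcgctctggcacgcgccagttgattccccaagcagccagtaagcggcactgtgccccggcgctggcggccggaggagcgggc
Casq2: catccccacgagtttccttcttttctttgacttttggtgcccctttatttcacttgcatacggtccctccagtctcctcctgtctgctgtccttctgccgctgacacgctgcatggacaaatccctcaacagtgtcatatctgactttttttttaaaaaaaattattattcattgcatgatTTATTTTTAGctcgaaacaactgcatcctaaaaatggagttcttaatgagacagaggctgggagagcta
GC content was 32.8% for Pln, 63.2% for Ryr2 and 41.6% for Casq2, against a median of 52.4% over 32851 such windows, and they held 1, 14 and 5 CpG dinucleotides. The search covered both strands for the MEF2 site (by its usual 10-base consensus), the CArG box, to which serum response factor binds, the MCAT element CATTCC and the GATA element AGATAA. The Casq2 window held 1 MEF2 site and the Pln window 1 GATA element, found on the reverse strand, while the Ryr2 window held none of the 4. Slc8a1 held 1 GATA element, and Hrc and Jph2 held none. Over all windows, 2.92% held the MEF2 site, 1.47% the CArG box, 12.6% CATTCC and 9.99% AGATAA. The matches are letters in a window of this length and were not tested as binding sites.

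Pln, which holds back the calcium pump until it is phosphorylated, was measured by 3 probe sets above the filter. On 1423359_at the female and male controls stood at 7.23 and 7.43, the 1 week pools at 7.41 and 7.12, and the 8 week pools at 4.91 and 5.05. The 2 pools of each group lay close together, and both 8 week pools lay more than 2 log2 units below every other pool. This probe set fell by 2.35 ± 0.18 on the log2 scale at 8 weeks, 5.09-fold lower (−2.32 in females, −2.38 in males, limma adjusted p = 0.047). The call rested on a narrow margin: it ended with no filter on dim probe sets (adjusted p = 0.161), with sex left out of the model (0.127), with the 4 arrays of the comparison alone (0.144) and when any 1 array other than the male 8 week pool was left out (0.087 to 0.241, changes of −2.49 to −2.21).

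On the other Pln probe sets the 8 week pools were also the lowest, with a wider gap between the sexes at 8 weeks. The brightest, 1460332_at, stood at 8.21 and 8.25 in the female and male controls, 7.99 and 8.34 at 1 week and 6.002 and 7.23 at 8 weeks. The third, 1450952_at, stood at 7.62 and 7.67, then 7.86 and 7.66, then 3.99 and 6.13, with the female 8 week pool just above the floor. Their changes at 8 weeks were −1.61 ± 0.31 (adjusted p = 0.0919) and −2.59 ± 0.60 (adjusted p = 0.113), and neither passed. No 8 week pool overlapped a control or 1 week pool on any of the 3. Over the 6 arrays the 3 Pln probe sets correlated with each other at r = 0.90 or above, a description of 6 points of which the 2 from 8 weeks were low on all.

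Sln, the short relative of Pln that restrains the pump mainly in atrial and skeletal muscle, showed the widest gap between the sexes. Its probe set 1420884_at stood at 9.25 and 9.48 in the female and male controls, 9.97 and 10.01 at 1 week and 5.99 and 8.88 at 8 weeks. Both 1 week pools were the highest of their sex, and the female 8 week pool lay far below the male one. The change at 8 weeks was −3.27 in females and −0.60 in males, a mean of −1.93 ± 0.74 that did not pass (adjusted p = 0.218). The second Sln probe set, 1420883_at, was at the floor on 5 of the 6 arrays and gave no measurement.

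Atp2a2, the pump itself, had 5 probe sets above the filter, and they differed in the size of their 8 week change. On the brightest, 1416551_at, it stood at 11.66 and 11.45 in the female and male controls, 11.69 and 11.87 at 1 week and 10.29 and 10.65 at 8 weeks. The 8 week pools were the lowest in both sexes and did not overlap the others, with a change of −1.09 ± 0.19 (2.12-fold lower, adjusted p = 0.0808). The other 4 differed by less: −0.81 ± 0.21 on 1452363_a_at, −0.63 ± 0.22 on 1437797_at, −0.35 ± 0.15 on 1427250_at and −0.30 ± 0.21 on 1427251_at, with adjusted p-values of 0.129 to 0.434. On 1427250_at the pools stood at 10.64 and 10.73 in controls and 10.45 and 10.22 at 8 weeks, and on 1427251_at the male pools stood at 7.47 and 7.42. The gene makes a heart form and a widespread form of the pump, and the annotation used does not say which form each probe set reads. The sixth probe set, 1443551_at, was at the floor on 5 arrays.

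Among the genes of calcium release, Ryr2, the release channel whose GC-rich promoter window is printed above, came closest to passing. On 1450123_at it stood at 7.21 and 7.48 in the female and male controls, 6.72 and 7.60 at 1 week and 4.15 and 5.49 at 8 weeks. The 8 week pools were the lowest in each sex, with no overlap. The change at 8 weeks was −2.53 ± 0.28 (5.76-fold lower, −3.07 in females and −1.98 in males, adjusted p = 0.0523). It passed under 4 of the other ways of scaling or flooring the arrays (adjusted p = 0.0228 to 0.036) under trend and robust variance settings (0.0065) and without the male 8 week pool (0.0311). It did not pass with no filter on dim probe sets (0.174), with sex left out of the model (0.184), with the 4 arrays of the comparison alone (0.144) or without any other array (0.087 to 0.241). The dim second probe set, 1421126_at, had 3 arrays at the floor and was not tested.

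Casq2, the main calcium buffer of the cardiac store, stood at 7.29 and 7.25 in the female and male controls, 7.09 and 7.76 at 1 week and 5.71 and 6.37 at 8 weeks on 1422529_s_at. Its 8 week pools lay below all others, with a change of −1.23 ± 0.23 (2.35-fold lower, adjusted p = 0.0883). The suffix of this probe set marks one that can also match other transcripts. Trdn on 1451801_at stood at 5.90 and 6.25 in controls, 6.15 and 7.23 at 1 week and 3.95 and 5.58 at 8 weeks. The female 8 week pool was at the floor, so its difference from the control (−1.95) is a lower bound in size, the male change was −0.67, and the mean of −1.31 ± 0.32 did not pass (adjusted p = 0.122). Of the 5 dimmer Trdn probe sets, 2 (1426142_a_at and 1426144_x_at) were at the floor in both 8 week pools and above it in both controls, 2 (1426134_at and 1451940_x_at) were 0.39 and 0.40 higher at 8 weeks than in controls, and 1 (1426143_at) was at the floor on 4 arrays. None of these 5 was tested, since each lay below the filter.

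Hrc and Jph2 showed no gap between 8 week and control pools. Hrc, which binds calcium in the store lumen, stood at 8.40 and 7.41 in the female and male controls, 7.79 and 7.73 at 1 week and 7.83 and 6.75 at 8 weeks on 1419109_at. Its 8 week and control pools overlapped because the female pool was the higher in both groups, while the change was similar in the 2 sexes (−0.57 and −0.66, mean −0.62 ± 0.29, adjusted p = 0.28). Jph2, which spans the junction of the store and the surface membrane, was measured by 2 probe sets that did not pass. On 1455404_at it stood at 8.28 and 7.54 in controls, 8.19 and 8.51 at 1 week and 8.09 and 8.40 at 8 weeks, a change of 0.34 ± 0.31 (adjusted p = 0.543). On 1421453_at it stood at 5.87 and 6.36, then 6.10 and 6.36, then 6.50 and 6.19, a change of 0.23 ± 0.23 (adjusted p = 0.579). Female and male changes had opposite signs on both, and on each the 8 week pools overlapped the controls.

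Slc8a1, the exporter, was dim. Its probe set 1437675_at stood at 5.86 and 5.32 in the female and male controls, 5.28 and 5.53 at 1 week and 4.86 and 4.94 at 8 weeks. Both 8 week pools were below every other pool, with a change of −0.69 ± 0.23 that did not pass (adjusted p = 0.18). The other 3 Slc8a1 probe sets lay below the filter, and they differed in direction: 1440201_at was 0.52 higher at 8 weeks than in controls, 1425817_a_at moved by −0.81 in females and 0.79 in males with 2 arrays at the floor, and 1420210_at was at the floor on 5 arrays. The 11 probe sets below the filter had mean log2 intensities from 3.98 to 5.10, 8 of them with at least 1 array at the floor, against 5.30 for the dimmest probe set tested and a filter at 5.15.

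**Figure D2:**
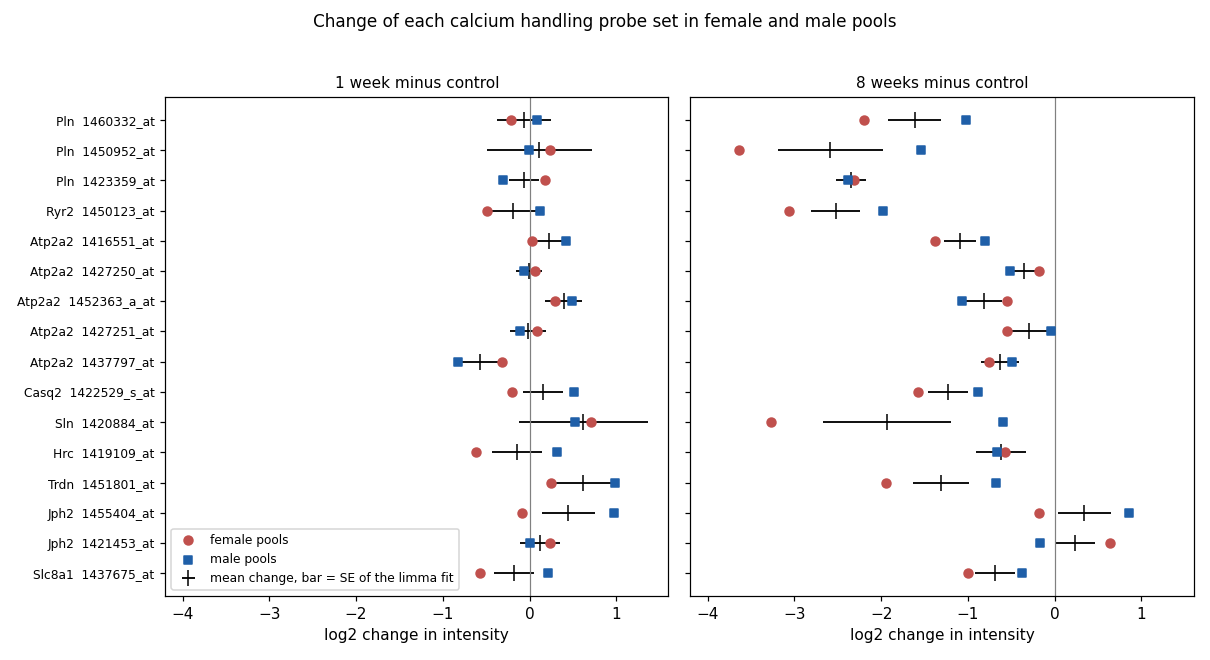
Log2 change of each tested probe set at 1 week (left) and 8 weeks (right) against the control pool of the same sex; circles are female, squares male, and the black tick with its bar is the mean change and its standard error from the limma fit. At 1 week the means lie between −0.57 and 0.62 around 0, and at 8 weeks all but the 2 Jph2 probe sets lie below 0, with the female change the lower for Pln 1450952_at, Sln, Ryr2 and Trdn.

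At 1 week none of the 16 probe sets passed, and 0 of all 27022 did (0.00% called lower and 0.00% called higher in limma). Unadjusted p-values below 0.05 were found for 0 of the 16, against 3.03% of all probe sets on the high side and 2.47% on the low side. The changes ran from −0.57 (Atp2a2 1437797_at, adjusted p = 0.901) to 0.62 (Trdn 1451801_at, adjusted p = 0.928), with a median of 0.05 against 0.00 for all. Of the 16, 5 were higher than control in both sexes, against 27.5% of all, and 1 was lower in both. At 1 probe set a gene, 0 of the 9 members were lower in both sexes, against 21.1% of all 13215 genes. Both 1 week pools lay above both controls for 2 of the 16 (12.5% of all probe sets) and below them for 1 (11.1%). Sln was among the 5 at 0.71 in females and 0.52 in males, a mean of 0.62 ± 0.74, and so was Atp2a2 1416551_at at 0.03 and 0.42. Pln stood within 0.31 of control in either sex on all 3 of its probe sets. Trend and robust variance settings called 3 probe sets in all at 1 week, none of them a member.

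Setting 8 weeks against 1 week, which shares the 8 week pools with the comparison above, gave changes of similar size. For 11 of the 16 both 8 week pools lay below both 1 week pools, against 17.7% of all, and for 0 above them, against 20.7%. The change reached −1 or lower for 9 of the 16 (2.83% of all) and 1 or higher for 0 (1.31%), and 12 of the 16 were lower in both sexes, against 31.6%. The largest differences were those of Pln 1450952_at (−2.70 ± 0.60, adjusted p = 0.155), Sln (−2.55 ± 0.74, 0.199), Ryr2 (−2.34 ± 0.28, 0.106), Pln 1423359_at (−2.29 ± 0.18, 0.101) and Trdn (−1.93 ± 0.32, 0.118). Trdn and Sln differed more from their 1 week than from their control levels, by −1.93 against −1.31 and by −2.55 against −1.93. In limma 0 of 27022 probe sets passed here (0.00% in either direction), and 9 of the 16 had an unadjusted p below 0.05 on the low side, against 9.18% of all, and 0 on the high side, against 9.32%. With trend and robust variance settings 7 of the 16 passed among 752 in all: 2 of Pln, 2 of Atp2a2, Ryr2, Casq2 and Trdn.

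The 8 week change was lower in females than in males for 11 of the 16 probe sets, and for 10 of the 14 that were lower in both sexes. The share of all probe sets with a lower female change was not counted. At 1 probe set a gene, the median 8 week change of the 9 members was −1.58 in females and −0.67 in males, against 0.08 and 0.07 for all 13215 genes. For Sln the female and male changes were −3.27 and −0.60, for Pln 1450952_at −3.63 and −1.54, for Trdn −1.95 and −0.67 and for Ryr2 −3.07 and −1.98. Pln 1423359_at, at −2.32 and −2.38, and Hrc, at −0.57 and −0.66, differed little. With 1 pool a sex at 8 weeks, this difference could not be tested at that time alone. The female control was labelled only by its strain and the male control as SM22-rtTA only. Any difference between these controls cannot be told apart from sex in the changes. The test that the design allows, transgene by sex with both durations together, passed for 0 of the 16 and 0 of all (0.00% in either direction), and the smallest adjusted p was 1.00. Its error includes the difference between 1 and 8 weeks, which was large for probe sets that fell at 8 weeks. Standard errors were 2.41 for Sln, 2.42 for Pln 1450952_at and 1.94 for Ryr2, so for these the test could not decide whether the sexes differed. The interaction value of the members ran from −1.24 for Sln to 0.52 for Jph2 1421453_at. An unadjusted p below 0.05 was found for 1 of the 16, against 0.903% of all on the low side and 1.45% on the high side. It was Jph2 1455404_at (−1.05 ± 0.29, unadjusted p = 0.0177), which differed little between 1 and 8 weeks.

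Levels of Atp2a2 differed between female and male pools on 2 of its probe sets, a comparison added after their values were seen. On 1452363_a_at the female and male pools stood at 11.10 and 10.15 in controls, 11.40 and 10.64 at 1 week and 10.55 and 9.08 at 8 weeks, a sex term of 1.06 ± 0.17 (adjusted p = 0.0369). On 1427251_at they stood at 8.79 and 7.47, 8.87 and 7.36, and 8.24 and 7.42, a sex term of 1.22 ± 0.17 (adjusted p = 0.029). The female pool was the higher in 3 of 3 groups on both, while the other 3 Atp2a2 probe sets had sex terms of −0.10, 0.06 and −0.0028. These were the 2 of the 16 that passed, against 3.46% of all probe sets called higher in females and 4.85% called higher in males. Both calls ended with no filter on dim probe sets (adjusted p = 0.133 and 0.115) and without any 1 of the control or 1 week pools (0.113 to 0.162). Without either 8 week pool the call of 1452363_a_at ended (0.0531) and that of 1427251_at remained (0.0264). Female and male pools were separate arrays of separate animals throughout, so a difference in handling between them cannot be told apart from sex.

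Other genes of the calcium system had median changes near 0. A list of 35 further genes of striated muscle covered calcium release, storage and entry and also regulators and other muscle proteins. Of these, 34 were on the array and 29 above the filter, at 1 probe set each (the brightest). None was called in either direction at 1 week or 8 weeks. Of all 13215 genes, 0 were called at 1 week, and 7 lower and 35 higher at 8 weeks, so a count of 0 says little about a list. The median 8 week change of the list was −0.0043, against −1.23 for the 9 members at 1 probe set each and 0.08 for all genes. Of the 29, 12 were lower in both sexes at 8 weeks (41.4%), against 25.0% of all genes. Another 10 were higher in both (34.5%), against 42.2% of all genes. The 5 with the largest differences were Smpx, a small muscle protein (−1.45), sarcalumenin, a calcium-binding protein of the store (Srl −1.37), the skeletal release channel Ryr1 (0.70), the phosphodiesterase Pde3a (−0.70) and caveolin 3 (Cav3 0.62), with adjusted p-values from 0.124 to 0.354. Srl stood at 7.25 and 7.70 in the female and male controls, 7.71 and 8.43 at 1 week and 5.22 and 6.98 at 8 weeks, with both 8 week pools the lowest of their sex. Smpx stood at 7.11 and 6.88, 7.67 and 7.75, and 4.40 and 6.68. Genes that handle calcium in most cells, such as the pumps of the surface membrane, the inositol trisphosphate receptors and calreticulin, had a median of −0.04 (24 of 29 on the array, 22 above the filter, none called). That median was −0.20 on the deposited scale and 0.07 with arrays scaled to a common median, where the median of all probe sets was −0.13 and 0.14. Of these 22 genes, 7 were lower in both sexes at 8 weeks (31.8%) and 5 higher in both (22.7%).

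Heart muscle genes outside calcium handling were also lower in the 8 week pools, without passing. Of 40 cardiomyocyte markers, 38 were on the array and 33 above the filter. They covered the sarcomere and also energy enzymes, natriuretic peptides, transcription factors and channels. At 8 weeks 25 of the 33 were lower in both sexes, against 25.0% of all 13215 genes, and 0 were called, against 7 lower and 35 higher of all. The median change of the 33 was −1.09 (−1.40 in females and −0.44 in males), and it was −0.55 without the female 8 week pool and −0.65 without the female control. The 5 with the largest differences were titin (Ttn −3.06), the myosin heavy chain Myh6 (−2.63), which adult mouse atria and ventricles both use,, the creatine kinases Ckm (−2.06) and Ckmt2 (−2.03) and the sarcomere protein Tcap (−2.03), with adjusted p-values from 0.0589 to 0.149. The summed intensity of the 38 markers stood, against the control mean, at 101.1% and 98.9% in the control pools, female first, then at 114.7% and 138.2% after 1 week and at 38.8% and 65.5% after 8 weeks. For the 9 calcium handling genes, a sum carried mostly by Atp2a2, it was 106.2% and 93.8%, then 110.4% and 127.6%, then 40.6% and 58.5%. No marker of the 38 was at the floor on all arrays. The part of heart muscle content in the changes of the members was not tested.

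**Figure D3:**
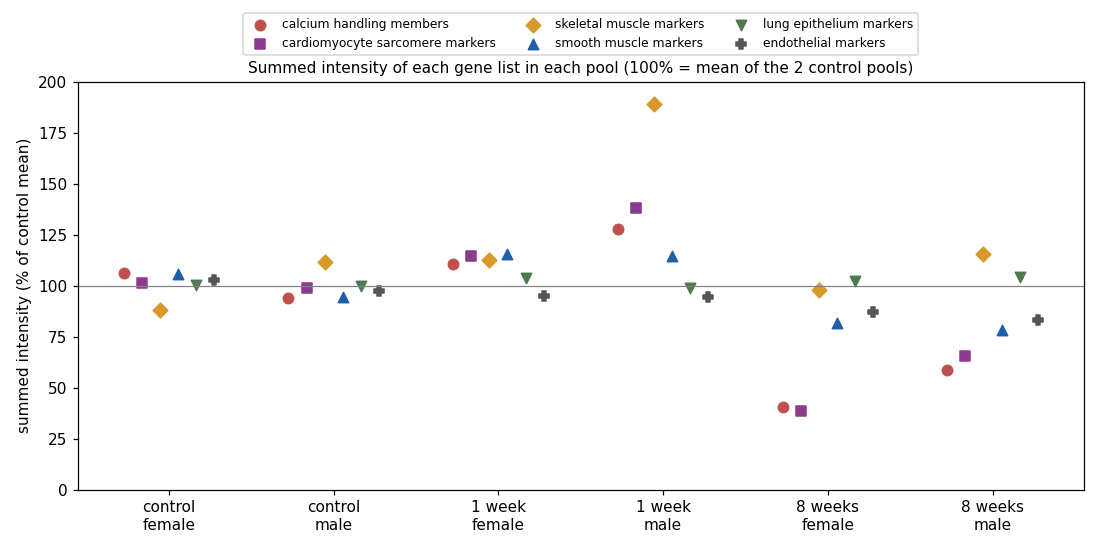
Summed intensity of each gene list in each pool, as a percentage of the mean of the 2 control pools; each point is 1 pool and the grey line marks 100%. Calcium handling genes and cardiomyocyte markers stand above 110% in both 1 week pools and below 66% in both 8 week pools. Lung epithelium markers, whose sum quantile normalization partly holds fixed, stay within 5% of the control mean in every pool.

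The marker lists of single chambers and other muscles differed in direction. The atrial light chains Myl7 and Myl4 differed by −1.46 and −1.58 at 8 weeks (−2.61 and −2.55 in females, −0.31 and −0.60 in males). In the same list Nppa was 0.48 higher (0.96 in males, at the floor in every female pool) and Tbx5 differed by −0.19. The atrial list, which contains Sln, had a median of −0.04 over 8 genes above the filter. Of these 8, 4 were lower in both sexes and 2 higher in both, against 25.0% and 42.2% of all genes. The ventricular list, which contains Pln, had a median of −0.58 over 5 genes. Besides Pln these were Mylk3 (−1.23), Myl3 (−0.58), Hey2 (−0.27) and Myh7 (0.32). Of the 5, 3 were lower in both sexes and 1 was higher in both. The ventricular light chain Myl2 was below the filter, at 4.15 and 3.95 in the female and male controls, 3.95 and 4.41 at 1 week and 5.31 and 6.62 at 8 weeks, so it was higher where the members were lower. Irx4 and Kcnj2 were at the floor on all 6 arrays. Skeletal muscle markers had a median of 0.34 over the 8 of 22 above the filter, their summed intensity reached 189.2% of the control mean in the male 1 week pool and 98.1% and 115.7% in the female and male 8 week pools, and Tnni1, Neb and Myog were at the floor on every array. The skeletal relatives of the members, Casq1 (−0.0043), Ryr1 (0.70) and Atp2a1 (0.50), did not pass. Smooth muscle markers, which mark the cells the transgene was directed to, had a median of −0.37 (−0.24 with arrays scaled to a common median and −0.25 without the female control). Of the 12, 10 were lower in both sexes, against the same 25.0% of all genes, and 0 were called, against 7 of all 13215 genes called lower. Macrophage markers were higher in both sexes for 7 of 7 genes, against 42.2% of all genes, and 0 were called, against 35 of all genes called higher. The median of the macrophage list was 2.17, and its summed intensities were 587.4% and 459.0% of the control mean in the female and male 8 week pools.

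**Figure D4:**
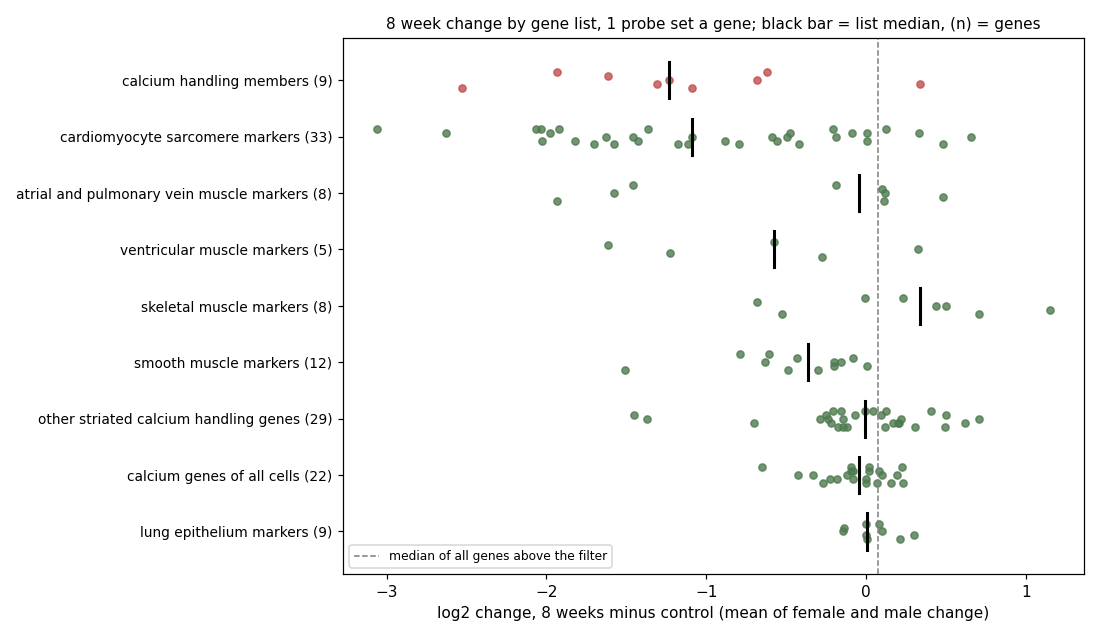
Log2 change at 8 weeks against control of each gene above the filter in 9 lists, with 1 point a gene (its brightest probe set), a black bar at the list median and a dashed line at the median of all genes. The medians of the calcium handling members (−1.23) and cardiomyocyte markers (−1.09) lie to the left of the other lists, and the other striated and general calcium genes centre on 0.

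The genes whose log2 intensity followed that of the brightest Pln probe set most closely over the 6 arrays included several of heart muscle. Among genes outside the members, the 10 highest correlations ran from r = 0.986 to 0.997 and belonged to Asph, Id4, Myom2, Dis3l2, Myh6, Zfp207, Kitl, Zkscan1, Tnnt2 and Zfp871. Myom2, Myh6 and Tnnt2 encode sarcomere proteins, and Asph encodes junctin, a partner of triadin and calsequestrin, among other products. Its probe set in this list, 1425274_at, differed by −1.75 at 8 weeks (adjusted p = 0.075, female 8 week pool at the floor), while its other 4 tested probe sets differed by −0.36, −0.09, −0.22 and 0.48. For Atp2a2 1416551_at the 10 were Gabrp, Cox6a2, Dsg2, Tcap, Phrf1, Ly6g6c, Eno4, Actc1, Kdr and Ankhd1 (r = 0.984 to 0.994), of which Cox6a2, Tcap and Actc1 were in the cardiomyocyte list. For Slc8a1 1437675_at they were Btbd7, Fblim1, Macf1, Ddx3x, Ttc39b, Bach2, Ccdc141, Zbed6, Thrap3 and Igf1r (r = 0.976 to 0.999), with none from that list. Each of these correlations is a description over 6 arrays in 3 groups.

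Among the members themselves, the brightest Pln probe set correlated with Ryr2 at r = 0.99, Casq2 at 0.97, Sln at 0.94, Atp2a2 1416551_at at 0.94, Trdn at 0.93 and Slc8a1 at 0.80. It correlated with Hrc at 0.19, with the 2 Jph2 probe sets at −0.03 and −0.49, and with Atp2a2 1452363_a_at and 1427251_at at 0.28 and −0.06. These are descriptions over the same 6 arrays, with no test.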

How the data were processed

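Whole-lung RNA of 6 pools was labelled with biotin and hybridized to 1 array each, per the labels' protocols. The deposited values are linear signal intensities between 10 and 11513.01, per the values, and how the authors summarised and scaled the probes is not given in the sources used here. Extraction is described for the 4 transgenic pools only. The intensities were quantile normalized, values under the 20th percentile (15.46, log2 3.95) were raised to it, log2 was taken, and the 27022 probe sets with a mean above the 40th percentile were fitted with limma 3.58.1 (R 4.3.3) with group and sex as terms, which left 2 residual degrees of freedom. A second model held transgene, sex and their interaction. Symbols came from the platform annotation: 34945 probe sets had 1, 932 several and 9160 none, and all 9 members were in the GRCm38.p6 table.

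The members and lists were chosen with earlier results of these data known. Every member probe set was named. From the other lists, the brightest probe set of a gene was used and up to 5 genes with the largest absolute 8 week change were named, and for likeness the 10 genes with the highest Pearson r. Other genes were chosen after their values were seen (Srl and Smpx levels, Casq1, Ryr1, Atp2a1, Myl2, Myl4, Myl7 and Tmem38b). In the model with group and sex, p-values set a change against the residual spread. That spread mixes the spread between pools with any difference between the sexes in their changes, while a constant difference in level is taken up by the sex term. The model was also run on simulated data with known changes, independent noise and no sex difference. That setting is simpler than these pools, so nothing is drawn from it here. The number of arrays limits precision. Plots used matplotlib 3.10.9 in Python 3.11.15.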

Additional observations from a re-analysis of the deposited data

Results flagged for a closer look

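Female and male pools moved in opposite directions against the control pool of their sex for several probe sets. The difference was not tested, since each sex had 1 pool a group. At 1 week these were Pln 1460332_at (−0.22 in females and 0.09 in males), Pln 1450952_at (0.24 and −0.01) and Pln 1423359_at (0.18 and −0.31). They also included Ryr2 1450123_at (−0.49 and 0.12), Atp2a2 1427250_at (0.060 and −0.07), Atp2a2 1427251_at (0.081 and −0.11) and Casq2 1422529_s_at (−0.20 and 0.51). The last 3 were Hrc 1419109_at (−0.61 and 0.32), Jph2 1455404_at (−0.084 and 0.97) and Slc8a1 1437675_at (−0.58 and 0.22). At 8 weeks Jph2 1455404_at (−0.18 and 0.86) and Jph2 1421453_at (0.64 and −0.17) did so. Groups of 2 pools allowed no search for outlying pools.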

How the results depend on the processing

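At 8 weeks the count of calls against control was 161 (1 member) and rose to 461 (2) on the deposited scale, 705 (2) with arrays scaled to a common median, 439 (2) with the floor at the 40th percentile, 583 (2) with log2(value + 16), 1916 (7) with trend and robust settings and 337 genes with 1 value per gene. The 2 members were Pln 1423359_at and Ryr2. Calls higher and lower were 56 and 105, 76 and 385 on the deposited scale and 318 and 387 with a common median. The count was 0 (0) in limma with no filter, without the sex term and with only the 4 arrays compared, where 3358, 1909 and 2339 probe sets were lower at an unadjusted p below 0.05. Leaving out 1 array gave 0 to 1071 calls and 0 to 5 members, the most without the male 8 week pool. At 1 week the count of 0 became 3 with trend and robust settings and 1 with 1 value per gene. For 8 weeks against 1 week, 0 became 752 (7 members) and 180 genes. For female against male, 2244 (2 members) became 0 (0) with no filter and 4183 with trend and robust settings, and leaving out 1 array gave 0 to 1279 (0 to 1 member). Counting only values that an alternative moved, the sign of a member's 8 week change held in 53 of 54 over the settings and 61 of 64 with 1 array left out, and at 1 week in 47 of 49 and 42 of 64, and no called value changed sign. The filter, the variance settings, the sex term and fitting the 4 arrays alone do not move a change. No paired analysis was possible because the labels give no replicate numbers; the sex term takes that place.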

Other observations

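Tmem38b, which encodes a potassium channel that balances charge during calcium release from the store in most cells, was named after its values were seen. On its brightest probe set, 1424700_at, the female pools stood at 11.08, 11.02 and 11.17 in controls, at 1 week and at 8 weeks, and the male pools at 8.66, 8.78 and 8.91. The sex term was 2.31 ± 0.11 (limma adjusted p = 0.00972). It was the only 1 of the 29 other striated calcium handling genes tested that passed. Of all probe sets, 3.46% were called higher in females and 4.85% higher in males, so the list held no excess of calls. The call ended with no filter on dim probe sets (adjusted p = 0.0719) and without any 1 of the control or 1 week pools (0.0875 to 0.106), and remained without either 8 week pool (0.015). The other 3 Tmem38b probe sets had sex terms of −0.86 (adjusted p = 0.0285), 0.082 and 0.0003, so they did not share the difference. As with the 2 Atp2a2 probe sets, the gap was present in 3 of 3 groups. Nppa, which encodes the atrial natriuretic peptide, was at the floor in all 3 female pools and at 7.16, 6.78 and 8.12 in the male pools.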
